A study of Mus musculus with 4 samples.

Results

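Methylation along the mouse gene Sash1 (ENSMUSG00000015305.6) was followed in whole-genome bisulfite data of microglia. All rows of the authors' deposited tables that lie in the gene or within 50000 bp of either end were taken. That rule gave 10 of 3389 deposited regions and 388 of 269406 listed cytosine positions. The gene was chosen by its deposited differences and area scores in these same data, its largest region having the highest score among those more methylated in the first group. Counts and levels in it are therefore a description, with no test. Sash1 lies on the minus strand of chromosome 10 at chr10:8722219-8886070 (GRCm38, gene models of GENCODE M21), spans 163852 bp, and has 20 exons and 19 introns in its full-length transcript, Sash1-201. A short transcript, Sash1-202, begins inside intron 8, at a start that GENCODE tags as supported by CAGE, a method that captures the capped 5′ ends of RNA. That internal start is 123596 bp downstream of the canonical one, at position 8762474.

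Sash1 encodes a large adaptor protein with SAM and SH3 domains, the kind of modules through which proteins bind each other. In endothelial cells the protein is known as a scaffold that ties the receptor TLR4 to TRAF6, TAK1 and the IKK kinases, and the gene is also studied as a tumour suppressor. Cytosine methylation in mammals falls mostly on CpG dinucleotides, where both strands carry the mark. It is commonly low at active promoters and enhancers and high through the bodies of transcribed genes, so that low methylation inside a gene is often found at internal promoters or enhancers.

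The samples were microglia, the resident macrophages of the brain, sorted by flow cytometry after isolation without enzymes from untreated C57BL/6J mice at 3 months of age. There were 2 samples labelled WT (wild type) and 2 labelled IRF8KO, which lack IRF8, a transcription factor of the myeloid lineage. DNA from 40000 cells went into each library. The labels describe neither the knockout allele nor whether the 2 samples of a genotype came from separate animals, litters or batches. Both deposited tables hold the authors' comparison of a first with a second numbered group, with 1 value per group and none per sample. The headers do not say which genotype is which number, so the groups are called first and second here. Spread between samples therefore cannot be given beside any value, and the read depth is unknown. A position is listed where the authors' posterior probability of a difference above their threshold was at least 0.95. A level is the fitted share of methylated cytosine on a scale from 0 to 1, and a difference is the level of the first group minus that of the second.

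Reference sequences show the contrast along the gene (RefSeq, GRCm38.p6, minus strand, 5′ to 3′). The first is the stretch of intron 9 around the position with the largest difference, chr10:8755014-8755313, where 14 cytosines were listed, all more methylated in the first group. The second is most of the intron 2 region that goes the other way, chr10:8837842-8838141, with 18 listed cytosines. The third is the 250 bp before the canonical start, chr10:8886071-8886320, where none was listed. Capitals mark every CpG in these.
Intron 9 stretch: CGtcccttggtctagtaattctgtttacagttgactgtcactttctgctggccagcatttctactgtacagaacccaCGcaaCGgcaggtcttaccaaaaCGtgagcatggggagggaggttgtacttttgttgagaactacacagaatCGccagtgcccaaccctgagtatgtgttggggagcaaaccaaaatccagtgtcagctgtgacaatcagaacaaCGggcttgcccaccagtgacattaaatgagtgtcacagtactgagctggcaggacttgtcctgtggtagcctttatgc
Intron 2 region: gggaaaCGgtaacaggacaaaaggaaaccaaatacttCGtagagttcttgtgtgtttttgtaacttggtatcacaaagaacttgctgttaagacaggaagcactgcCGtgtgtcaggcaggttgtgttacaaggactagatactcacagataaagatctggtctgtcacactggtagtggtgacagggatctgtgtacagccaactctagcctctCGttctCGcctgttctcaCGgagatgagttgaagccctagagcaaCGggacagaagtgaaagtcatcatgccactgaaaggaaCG
Canonical promoter: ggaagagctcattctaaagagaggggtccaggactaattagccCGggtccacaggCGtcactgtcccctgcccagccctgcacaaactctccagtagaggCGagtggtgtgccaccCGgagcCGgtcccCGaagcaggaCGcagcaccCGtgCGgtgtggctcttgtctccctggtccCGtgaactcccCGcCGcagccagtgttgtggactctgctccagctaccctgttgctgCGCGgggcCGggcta
The intron 9 stretch holds 6 CpGs, the intron 2 stretch 8, and the promoter stretch 15. In the intron 9 stretch the fitted levels of the authors' deposited table were 0.862 to 0.877 in the first group, against 0.183 to 0.200 in the second. Along the intron 2 stretch they ran from 0.236 to 0.355 in the first group against from 0.813 to 0.880 in the second.

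Most of the listed positions were more methylated in the first group and sat in one stretch of introns 8, 9 and 10. The authors' deposited values put 349 of the 388 positions (89.9%) higher in the first group and 39 lower. Over all listed positions of the genome 61.9% were higher. A false discovery rate (FDR) under 0.05 was reached by 241 of the 388 Sash1 positions (62.1%), against 18.7% of all listed positions. Of these 241, 220 were higher in the first group and 21 were lower. Over the genome, 10.9% of all listed positions had such an FDR and were higher, and 7.84% had it and were lower. A block of 16273 bp from intron 10 to intron 8, at chr10:8747077-8763349, held 310 positions, 79.9% of those of the locus on 9.93% of the length of the gene. All 310 were higher in the first group, and 215 had an FDR under 0.05. Of 606 positions tested in that block, counted from the row numbers of the deposited table, 51.2% were listed.

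**Figure D1:**
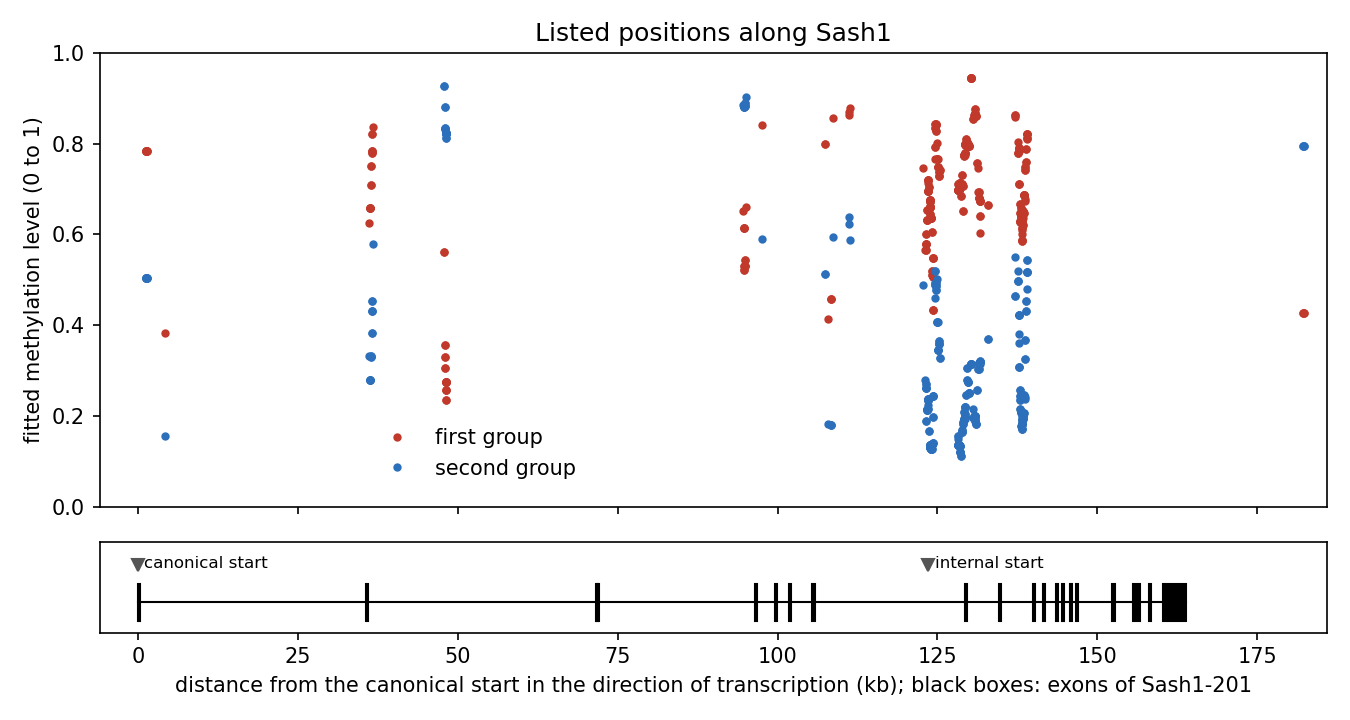
Fitted methylation level (0 to 1) of each listed position in the first group (red) and the second group (blue), against the distance in kb from the canonical start, with the 20 exons of Sash1-201 as black boxes below (short exons widened to be visible). Red lies above blue throughout introns 8 to 10, near the internal start, while blue lies above red in 1 cluster of intron 2, in intron 4 and past the 3′ end.

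Positions next to each other share fitted values, so the number of separate differences is smaller than the number of positions. Joined within 500 bp, the 388 positions formed 13 clusters, with 10 higher in the first group, 3 lower and none mixed. Both cytosines of a CpG were listed at 159 CpGs, and at 152 of these the deposited differences of the strands were identical.

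The largest region covered the end of intron 8, exon 9 and the start of intron 9, at chr10:8754853-8757894. It spanned 3042 bp and 115 cytosines. Its deposited mean level was 0.768 in the first group against 0.189 in the second, a difference of 0.580. All 115 tested positions in it were listed, all with an FDR under 0.05. By the absolute area score of the authors' deposited table, which sums the test statistics of a region, its rank was 3 of 3389, with a score of 765, and first among regions higher in the first group. Its length ranked 5 and its number of cytosines 6. Its difference was larger than that of 97.2% of all regions. CpGs were no denser in it than usual for the list, with 16.8 per kb against a median of 18.9.

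Within that region levels changed along the direction of transcription, from a median of 0.704 in the first group against 0.135 in the second at its 5′ part to 0.862 and 0.251 on the intron 9 side. The 5′ part lies in an exon that a RefSeq predicted model uses as its first, at chr10:8757414-8758272, and the region covers 481 of that exon's 859 bp. There 47 cytosines were listed on 43.7 CpGs per kb. Their deposited levels were 0.684 to 0.714 in the first group against 0.112 to 0.157 in the second, with differences of 0.549 to 0.588. Next came 652 bp of intron 8 with 21 positions, at 0.652 to 0.780 against 0.165 to 0.208. Exon 9, a coding exon of 133 bp, had all of its 3 CpGs listed. The 6 cytosines stood at 0.797 to 0.800 in the first group against 0.204 to 0.220 in the second, with differences of 0.579 to 0.594 and deposited standard errors of 0.0836 to 0.0984. On the intron 9 side, where CpGs thin out to 10.7 per kb, 41 positions stood at 0.757 to 0.946 against 0.183 to 0.314. The largest difference of the locus was there, at position 8755163, with 0.877 in the first group, 0.189 in the second and a difference of 0.688 (deposited SE 0.0825, FDR 3.93e-12).

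The region at the internal start was the second of the locus by area score. It spanned 909 bp and 54 cytosines at chr10:8761895-8762803, with deposited mean levels of 0.652 in the first group against 0.168 in the second, a difference of 0.484. The first exon of Sash1-202, 380 bp at chr10:8762095-8762474 with only 12 coding bases, lies inside it. All 27 cytosines listed in that exon had an FDR under 0.05, with 0.635 to 0.704 in the first group against 0.128 to 0.166 in the second. Upstream of the internal start 21 positions followed, at 0.601 to 0.720 against 0.189 to 0.237. The smallest differences of the region were on the other side of the exon, where 6 positions in intron 8 ranged from 0.374 to 0.480 and 2 of them had an FDR under 0.05. CpGs were denser here than in the largest region, at 27.5 per kb. RefSeq predicted models place further starts nearby, at positions 8762631 and 8762862. Other predicted models start where no position was listed, at 8886480 near the canonical start and at 8945590 and 8945608 beyond the upstream flank. RefSeq starts were added to the comparison with the methylation values already known.

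**Figure D2:**
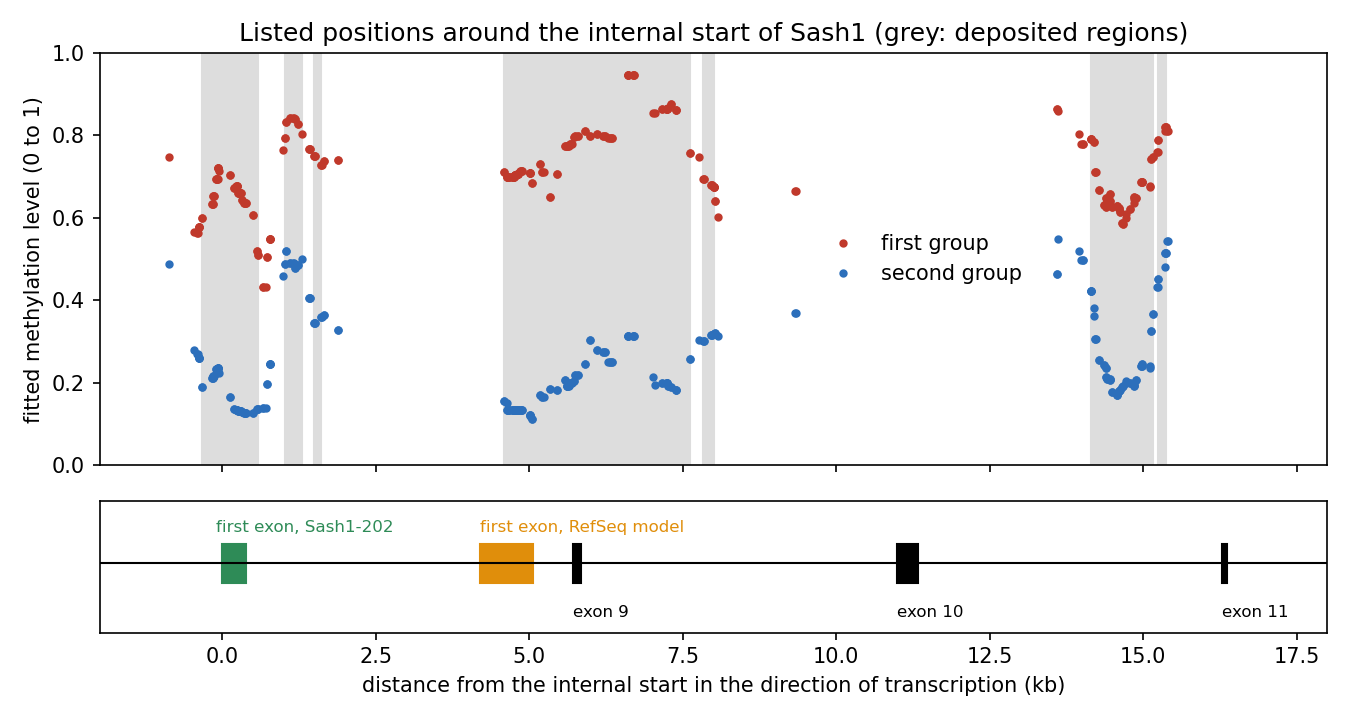
Fitted methylation level (0 to 1) of each listed position in the first (red) and second (blue) group, against the distance in kb from the internal start, with deposited regions in grey and exons below. The second group falls to 0.112 at the first exon of the RefSeq model and to 0.128 at the first exon of Sash1-202, and both groups dip together in the middle of the intron 10 region.

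Intron 10 held another large region, at chr10:8747318-8748333. Its 58 cytosines had deposited mean levels of 0.663 and 0.240, a difference of 0.423, and 43 of them had an FDR under 0.05. Both groups fell towards its middle, with a first-group level from 0.586 to 0.792 and a second-group level from 0.171 to 0.423. The 3 regions with 50 or more cytosines together held 227 of the 388 listed positions, and 208 of the 227 had an FDR under 0.05.

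Smaller regions flanked the large ones in the same direction. Next to the intron 10 region, 7 cytosines at chr10:8747104-8747242 had deposited mean levels of 0.801 and 0.481. Beside the largest region, 11 cytosines of intron 9 at chr10:8754460-8754653 had 0.681 and 0.314. Downstream of the internal start in intron 8, 12 cytosines at chr10:8761185-8761454 had 0.831 and 0.494, and 5 cytosines at chr10:8760865-8760990 had 0.745 and 0.347. Few positions of these regions passed on their own, with 1, 2, 2 and 0 at an FDR under 0.05. Between the largest region and the next listed position towards the internal start, 2693 bp with 29 CpGs and 71 tested positions had none listed. Another such gap of 4245 bp, with 160 tested positions, separated the intron 9 and intron 10 positions and covered exon 10.

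Towards the 5′ end the direction was mixed. In intron 2 a region of 19 cytosines at chr10:8837842-8838213 was lower in the first group, with deposited mean levels of 0.300 and 0.835, a difference of -0.535. All 19 positions had an FDR under 0.05. The lowest difference of the locus was at its edge, position 8837842, with 0.236 in the first group, 0.813 in the second and a difference of -0.578 (deposited SE 0.0936, FDR 4.87e-06). Also in intron 2, a region of 5 cytosines at chr10:8849523-8849699 was higher in the first group, at 0.754 against 0.352. In intron 4 a region of 9 cytosines at chr10:8791216-8791337 was again lower, at 0.566 against 0.884, a difference of -0.317. An FDR under 0.05 was reached by 2 of its positions, both off a CpG of the reference. Of its 9 cytosines, 4 were on a reference CpG, and none of these had an FDR under 0.05. Near the canonical start, the 10 listed positions of intron 1 formed no region. The 9 nearest to the start shared 1 pair of levels, 0.785 in the first group against 0.503 in the second, and none had an FDR under 0.05. The remaining position, 4234 bp from the start, stood at 0.383 against 0.156 with an FDR of 0.0257. Counted together, 8 of the 10 Sash1 regions were higher in the first group, against 53.3% of all regions.

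**Figure D3:**
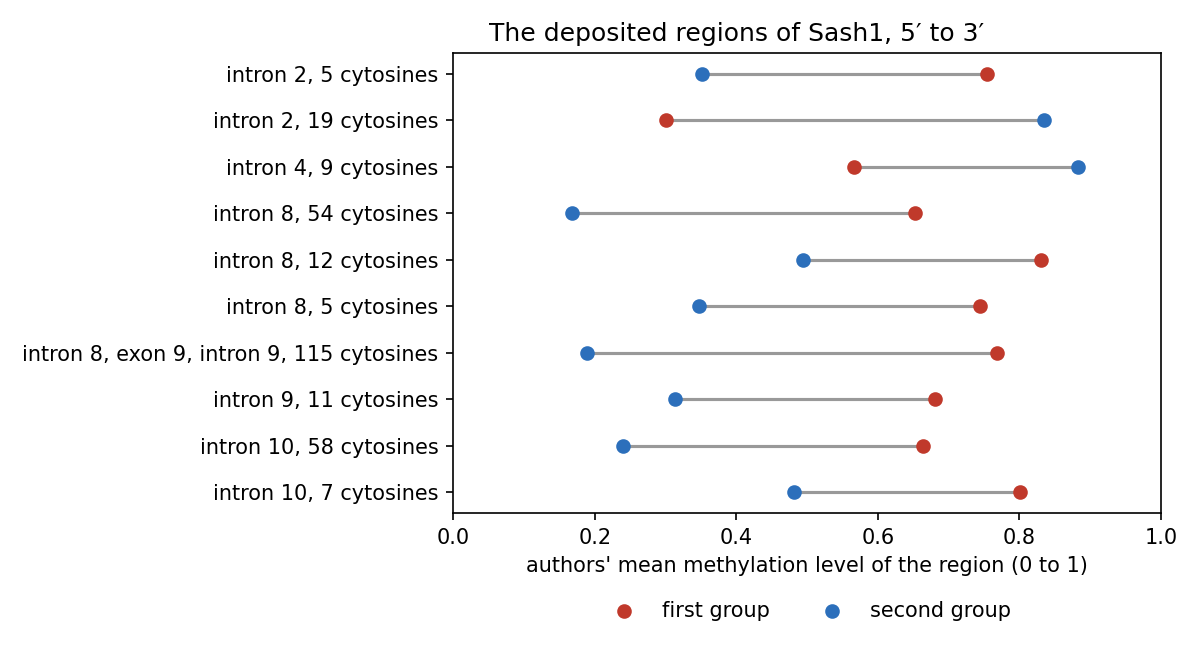
The authors' mean methylation level (0 to 1) of each of the 10 deposited regions of Sash1 in the first (red) and second (blue) group, ordered from the 5′ to the 3′ end of the gene and named by place and number of cytosines. Only the intron 2 region with 19 cytosines and the intron 4 region have red on the left.

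The intron 4 region was the only one of the 10 to hold the letters of a composite element bound by PU.1 or other ETS factors together with IRF factors. It was searched on both strands as GGAA, any 2 bases, then GAAA. The match is GGAAGTGAAA on the plus strand at chr10:8791249-8791258. It is in capitals, reverse complemented, in the sequence of the region on the minus strand.
Intron 4 region: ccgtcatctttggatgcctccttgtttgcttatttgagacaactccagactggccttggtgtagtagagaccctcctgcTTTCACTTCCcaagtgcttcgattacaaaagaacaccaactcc
Of all 3389 regions 9.38% held the element. Among the 556 regions within 0.8 to 1.25 times the length of this one 4.14% did, and among the 210 of them that were lower in the first group 9.52% did. In windows of 300 bp centred on a region, 1 of the 10 Sash1 regions and 11.2% of all regions had it, with 2.38% of those higher and 21.3% of those lower in the first group. The IRF element GAAA, any 2 bases, then GAAA, which can overlap the composite one, was in none of the 10 Sash1 windows and in 5.28% of all windows. The Sash1 promoter of 300 bp in the RefSeq table held no composite element, and 2.72% of the 32851 promoters of that length did.

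The canonical promoter, taken as 2000 bp before to 500 bp after the start, held 106 CpGs and no listed position. The internal promoter of the same length held 72 CpGs and 56 listed positions, all higher in the first group. In the authors' deposited table the median level of those 56 was 0.660 in the first group, against 0.189 in the second, and 48 had an FDR under 0.05. The listed position nearest the canonical start was in intron 1, 1252 bp downstream of it, and from there 101164 bp with 2265 tested positions ran to the next one upstream without any. A position that was not listed has no value, so nothing is known here of its level in either group.

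Listed positions fell in 7 of 19 introns and 1 of 20 exons. The exons held 244 CpGs and 6 listed cytosines, and the introns 2218 CpGs and 378. Intron 8 had 178 listed positions, intron 10 had 77, intron 9 had 59, intron 2 had 38, intron 4 had 15, intron 1 had 10 and intron 5 had 1. Every position in introns 1, 5, 8, 9 and 10 was higher in the first group, every one in intron 4 was lower, and intron 2 had 18 higher and 20 lower. The 43213 bp from downstream of the gene to intron 10, which cover exons 11 to 20, had 1352 tested positions and none listed. Sorted by feature, 56 positions were in a promoter, 6 in a coding exon and 322 elsewhere in introns, with median deposited differences of 0.486, 0.579 and 0.405. The 6 coding positions are all in exon 9, inside the largest region, and share 2 pairs of fitted levels. The 56 promoter positions are all at the internal start and share 16 pairs. These medians describe those places and not coding exons or promoters in general. None fell in a UTR outside the promoters. Counting the RefSeq starts as well put 69 positions in promoters, with a median of 0.508.

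At the edges of the locus the list was sparse. The downstream flank had 4 positions within 45 bp, all at 0.427 in the first group against 0.794 in the second and none with an FDR under 0.05. The nearest of them to the outer edge was 18400 bp from the gene, and the upstream flank had none. Beyond the flanks, the nearest listed positions were 81004 bp downstream of the gene (0.751 against 0.334, FDR 0.0904) and 99913 bp upstream of it (0.305 against 0.649, FDR 0.00505). No other protein-coding gene lies within the flanks. The antisense RNA gene Gm26674, which overlaps the canonical start, held 8 of the listed positions, none with an FDR under 0.05. The nearest coding genes, Ust and Samd5, lie 203394 bp downstream and 736866 bp upstream and held 11 and 0 listed positions.

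Not all listed positions fall on a CpG of the reference. Of the 388 at Sash1, 339 (87.4%) did, against 78.0% of all listed positions. Of the other 49, 46 (93.9%) carried a pair of dispersion values shared by many rows of the deposited table (0.0571 and 0.0558). Over all listed positions off a CpG 96.3% did. The smallest FDR of the locus, 8.20e-18 at position 8755078, belonged to a position off a reference CpG. In the largest region 101 of 115 positions were on a CpG.

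Compared with other protein-coding genes, Sash1 had the most sequence in deposited regions, 6367 bp. The next were the read-through model Gm20388 with 5161 bp and the integrin gene Itga6 with 4317 bp. More regions than its 10 were found in 3 of 21938 genes, Gm20388 with 19, Frmd4a with 13 and Rad51b with 11. Within the gene body 7.30% of tested positions were listed, against a median of 0.245% over 5753 genes with at least 1000 tested positions, 19 of which had a higher share. With the flanks the share was 5.15%, and over the whole table it was 0.63%. These ranks describe the values by which the gene was chosen.

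**Figure D4:**
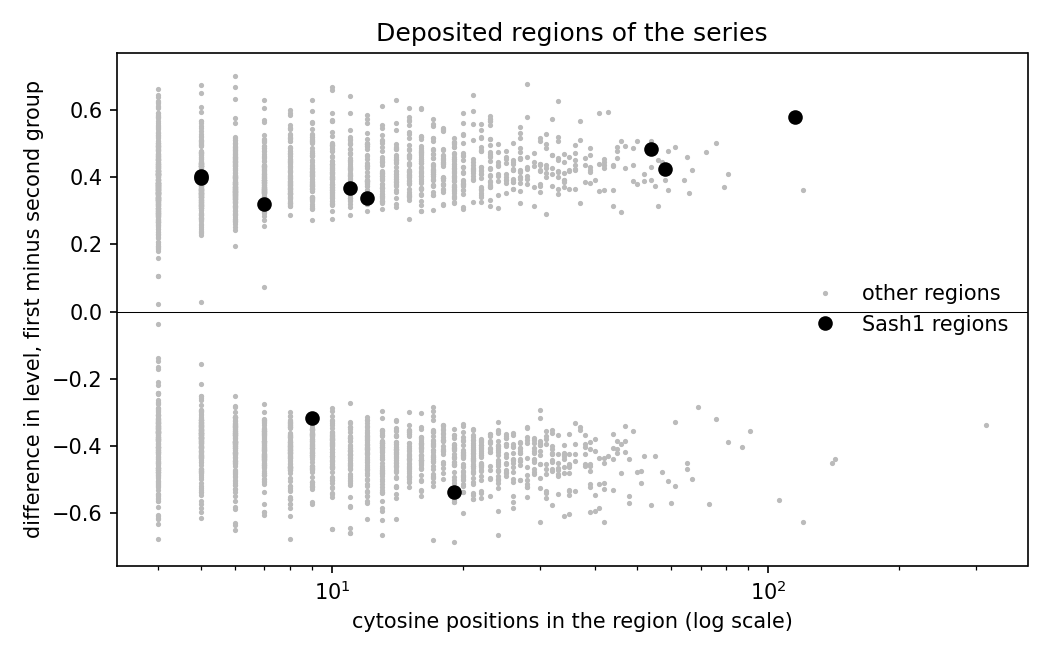
Difference in level (first minus second group) of every deposited region against its number of cytosine positions on a log axis, with the 10 Sash1 regions in black and the other regions in grey. The largest Sash1 region, at 115 cytosines and 0.580, stands apart in the upper right.

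By absolute area score the largest Sash1 region stood between regions that go the other way. Above it were regions in Hic1, a transcriptional repressor gene, at 0.180 against 0.516, and Ly86, which encodes the partner of a TLR-like receptor, at 0.241 against 0.866. Below it were regions in Sorbs3, at 0.136 against 0.587, and Kcnip3, at 0.176 against 0.614. All 4 had more cytosines and more CpGs per kb, from 27.3 to 85.0. The regions most like it in the 2 deposited levels, among the 42 regions of 50 or more cytosines in coding genes, were in Cmtm8 (0.725 and 0.218), Anks1 (0.756 and 0.255), Dab2 (0.698 and 0.190), Gcnt2 (0.725 and 0.250) and Frs2 (0.764 and 0.274). Likeness was the Euclidean distance of the levels, which ran from 0.0528 to 0.0857 over these 5 and was 0.117 and 0.118 for the other large Sash1 regions.

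Of the family of adaptors with SAM and SH3 domains, Samsn1 also had a region inside the gene or within 10000 bp, and Sash3 had none. Over all protein-coding genes 9.19% had one. The Samsn1 region, at chr16:75986496-75986869, had deposited mean levels of 0.695 and 0.209, the direction of the large Sash1 regions. Of the 11 genes of the TLR4 pathway around the scaffold, 3 had regions. Both regions of Traf6, the ubiquitin ligase, were higher in the first group, with differences of 0.327 and 0.377. Those of the kinase genes Map3k7 (TAK1), at -0.457 and -0.434, and Ikbkb, at -0.522, were lower. The receptor gene Tlr4 had 16 listed positions, 2 with an FDR under 0.05, and no region.

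The deposited tables hold no expression, so neither the labelled cell type nor the use of either Sash1 start could be read from them. Of marker genes counted in the same way, a region was found at 3 of 6 for microglia, 2 of 6 for border macrophages or monocytes, 2 of 3 for endothelium, 1 of 3 each for astrocytes and neurons, and 0 of 3 each for neutrophils and oligodendrocytes, against 9.19% of all protein-coding genes. Directions were mixed among them. P2ry12 had 2 regions lower in the first group, Cx3cr1 had 1 higher, and Sall1 had 2 higher and 3 lower. Of the border macrophage genes, Mrc1 had 3 higher and 1 lower, and Cd163 had 2 higher. Aldh1l1 had 1 higher and 1 lower, Syt1 had 1 higher, and all regions of Pecam1 and Flt1 were lower. The part of cell composition in the Sash1 differences was not tested.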

How the data were processed

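Whole-genome bisulfite libraries were made from 2 WT and 2 IRF8KO microglia samples, with 50 ng of DNA, 8 PCR cycles and reads of 75 bp per the labels. The submitters' processing notes name Trim Galore, Bismark and mm10, while caller and test settings are not given in the sources here. Per the file headers, the authors deposited, for each position, a fitted level per group as a fraction, a difference with its standard error and statistic (scores), a dispersion, a p-value with its FDR, and a posterior probability, whose smallest value was 0.95. Region rows give a count of cytosines, mean fractions, a difference and an area score, per the file headers. In every Sash1 region the area score equalled the sum of its positions' statistics.

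Genes came from GENCODE M21. Row numbers gave the order of the 42734461 tested positions, interpolated where a window's edge was not listed. Sites were called at a deposited FDR under 0.05. No test was added. With 2 samples a group an exact two-sided permutation test could not go below 0.333. Python 3.11.15, pandas 2.3.3 and SciPy 1.17.1 were used, and the functions were tested on simulated data.

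Named genes were Sash1, coding neighbours within 50000 bp, the family (Sash1, Sash3, Samsn1), the TLR4 list (Tlr4, Myd88, Irak1, Irak4, Traf6, Map3k7, Tab1, Tab2, Chuk, Ikbkb, Ikbkg), the 5 genes with the most alike large region, and 2 neighbours in rank on either side. Marker genes of 7 cell types were counted. Ust and Samd5, the nearest coding genes beyond the flanks, and Gm20388, Itga6, Frmd4a and Rad51b, which rank next to Sash1 by regions or by sequence in regions, were named after their values were seen. The members and lists were chosen with earlier results of these data known.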

Additional observations from a re-analysis of the deposited data

How the results depend on the processing

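Of 34 alternative values, 12 were marked as moved from the main value and 22 as the same. The marks do not follow the proportional size of a change. A count of 293 positions against 388 was marked the same, while a share of 85.7% against 89.9% was marked as moved. The number marked the same is therefore no measure of robustness. Counts and listed shares have no direction, and the direction of the other values was known when the gene was chosen. The 388 listed positions became 384 without flanks, 339 on reference CpGs, 293 with a dispersion of their own, 241, 198 and 159 with an FDR under 0.05, 0.01 and 0.001, 180 with both strands of a CpG as 1, and 13 and 43 when joined within 500 bp and 100 bp. The share higher in the first group, 89.9%, was 85.7% outside the largest region and 76.9% over clusters within 500 bp. The median difference of intron positions, 0.405, was 0.544 among those with an FDR under 0.05. The listed share of tested positions, 5.15%, was 7.30% in the gene body, 6.62% with flanks of 10000 bp and 3.68% without the largest region. The difference of the largest region stayed between 0.569 and 0.584. Adding the RefSeq starts was chosen after seeing the data. With the full-length transcript as the only model no promoter position is listed, so there is no value. No paired analysis was possible because each group has a single value per position or region, and for the same reason a coverage minimum and leaving out a replicate were not run. Depth is unknown.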
